A study of Mus musculus with 4 samples.

Results

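Transcripts of the NF-kB system were measured by RNA-seq in cultured mouse muscle stem cells (MuSCs) 1 h after addition of BMP6, a bone morphogenetic protein. The 10 genes described were chosen by name from the joined expression table: 4 subunit genes (Rela, Relb, Nfkb1, Nfkb2), 3 classical inhibitors (Nfkbia, Nfkbib, Nfkbie), 2 nuclear relatives of these inhibitors (Nfkbiz, Bcl3) and the ubiquitin-editing enzyme gene Tnfaip3. All 10 were found among 55267 entries. They were picked with the BMP6 response of these libraries already known, so their differences between the groups are given as a description, with no p. Whether they passed the call rule is printed beside the share of all entries that did, and supports nothing.

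MuSCs came from several muscles of female 9-week-old mice of the genotype C57BL/6N(Tg(Pax7-EGFP)Tajb), a transgenic line in which Pax7 sequences drive the fluorescent reporter used for sorting. The cells grew on Matrigel at 3% O2 for 1 day before and 2 days after sorting, then went without serum for 6 h in 200 ng/mL BMPR-1A-Fc, a soluble receptor that captures BMPs. Both groups shared these steps: 2 libraries came from cells given 100 ng/mL BMP6 and 2 from cells given vehicle (4 mM HCl, 0.1% BSA), called controls. The titles number the libraries as biological replicates 1 and 2, each with 1 BMP6 and 1 control library. The pairs of same-numbered libraries are compared throughout.

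NF-kB is a family of dimeric transcription factors. Inhibitors of the I-kappa-B class hold the dimers in the cytoplasm until the IKK kinase marks the inhibitor for destruction. Freed dimers then switch on target genes, and several targets, with Nfkbia and Tnfaip3 as the classical ones, encode proteins that shut the pathway down again. In muscle, the pathway is best known for restraining myogenic differentiation and for its part in wasting.

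Levels are given in TPM, each transcript's share of its library after allowing for transcript length, scaled to the same total in every library. Differences are on the log2(TPM + 1) scale, BMP6 minus control, with the standard error (SE) of the fit across all tested entries. This fit ignored the pairing, so its SE also holds shifts between the replicate numbers and does not measure the spread within pairs. An entry was tested when its mean over the 4 libraries was at least 1 TPM, which left 13128 entries, and all 10 genes passed. Tnfaip3 passed through its control libraries, since both BMP6 libraries were below that level.

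Libraries were of like depth, with 108138579 to 111966564 reads per library as rebuilt from coverage. Markers of the muscle lineage were high, at 6664 to 7626 TPM summed over 7 genes. Pax7, which defines MuSCs, was at 8.29 to 11.7 TPM, and Myog, a gene of committed myoblasts, at 4400 to 5472 TPM. Summed markers of immune cells (8 genes) came to 1.68 to 2.84 TPM in the 4 libraries and those of endothelial cells (4 genes) to 0.0088 to 0.298 TPM, with Ptprc at or below 0.0062 TPM and Kdr listed at 0. Fibroblast markers (5 genes) summed to 166 and 105 TPM with BMP6 and 174 and 125 TPM in controls, nearly all of it collagen, with Pdgfra at or below 0.164 TPM.

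On GRCm39, the deposited coordinates place Nfkbia at chr12:55536195-55539432, Nfkbib at chr7:28457676-28466065 and Nfkbie at chr17:45866629-45874095. Bcl3 (chr7:19542387-19556695), Relb (chr7:19340142-19363363) and Nfkbib share chromosome 7, and Rela (chr19:5687511-5698158) and Nfkb2 (chr19:46292759-46300824) share chromosome 19. Nfkb1 lies at chr3:135290416-135397307, Nfkbiz at chr16:55631738-55659262 and Tnfaip3 at chr10:18876658-18891158. All 10 are protein-coding, and levels cover their exons.

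The sequences just upstream of the genes are shown first, because NF-kB inhibitors are known as NF-kB targets. The promoter table made from RefSeq holds 7 of the 10 genes (Nfkbia, Nfkbib, Nfkbie, Nfkb2, Rela, Tnfaip3 and Bcl3) on build GRCm38.p6. All 10 of its promoters for these genes were found by exact match at 1 place in GRCm39, the build of the deposited files. The 250 bases before the start site are given for the gene that was highest after BMP6 relative to control (Nfkbia), the next (Bcl3), the one that was lowest (Tnfaip3, the start used by its more abundant transcript) and an inhibitor whose groups overlapped (Nfkbie). Each is written 5′ to 3′ along the gene with GRCm39 coordinates, and capitals mark a match to the kappaB consensus on either strand.
Nfkbia (chr12:55539433-55539682, minus strand): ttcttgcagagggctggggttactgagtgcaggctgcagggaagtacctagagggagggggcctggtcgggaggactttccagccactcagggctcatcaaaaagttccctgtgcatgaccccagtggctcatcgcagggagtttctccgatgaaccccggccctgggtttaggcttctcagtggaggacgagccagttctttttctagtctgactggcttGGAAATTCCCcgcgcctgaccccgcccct
Bcl3 (chr7:19556681-19556930, minus strand): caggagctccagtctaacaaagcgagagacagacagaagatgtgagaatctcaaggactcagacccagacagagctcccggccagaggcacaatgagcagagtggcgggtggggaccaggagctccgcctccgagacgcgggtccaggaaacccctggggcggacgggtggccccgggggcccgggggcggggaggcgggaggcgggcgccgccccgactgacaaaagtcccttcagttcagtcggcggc
Tnfaip3 (chr10:18891159-18891408, minus strand): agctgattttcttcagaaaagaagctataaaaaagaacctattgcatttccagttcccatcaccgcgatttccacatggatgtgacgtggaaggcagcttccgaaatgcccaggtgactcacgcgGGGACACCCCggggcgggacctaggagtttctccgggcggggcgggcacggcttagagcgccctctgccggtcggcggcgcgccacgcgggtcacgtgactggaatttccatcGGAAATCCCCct
Nfkbie (chr17:45866376-45866625, plus strand): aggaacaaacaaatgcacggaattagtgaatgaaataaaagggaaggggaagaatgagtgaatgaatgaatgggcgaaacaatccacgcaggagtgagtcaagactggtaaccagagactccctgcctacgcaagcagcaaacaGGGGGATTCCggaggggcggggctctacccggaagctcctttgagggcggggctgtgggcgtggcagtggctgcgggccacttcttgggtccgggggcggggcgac
The deposited Bcl3 transcript starts 15 bases further upstream than the RefSeq start.

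The kappaB consensus was found in 6 of these 10 promoters, which belong to 4 of the 7 genes, against 3.9% of all 32851 promoters in the table. Several windows of Nfkb2 lie close together, and the genes were chosen as members of the NF-kB system. Nfkbia had 1 match, beginning 29 bases before the start, and Tnfaip3 had 2, beginning 125 and 12 bases before it. Nfkbie had 1 match, and Nfkb2 had matches before each of its 3 start sites. It was not found in the Bcl3, Nfkbib or Rela windows. The SMAD motif GGCGCC, present in 9.59% of all promoters, was found before Bcl3 and Nfkbib. The SMAD motif GGAGCC, in 26.0% of all promoters, was found before Rela and at a single site shared by the windows of 2 Nfkb2 starts. The shorter element GTCTG, in 42.2% of all promoters, was found before Nfkbia and Bcl3, and the palindrome GTCTAGAC, in 0.167%, before the second start of Tnfaip3. Both strands were searched. A match describes letters in a window and is no evidence of binding.

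After 1 h of BMP6, Nfkbia was higher, Bcl3 was higher by less, Tnfaip3 was lower from a low level, and the 4 subunit genes differed little. Nfkbia encodes I-kappa-B-alpha, the inhibitor that NF-kB itself induces. With BMP6, it reached 90.4 TPM in replicate 1 and 71.9 TPM in replicate 2, while the control libraries held 34.4 and 35.6 TPM in the same order, which all pairs of values follow. Both BMP6 libraries were thus above both controls, and the controls lay closer together than the BMP6 libraries did. The ratio was 2.63 in the replicate 1 pair and 2.02 in the replicate 2 pair, with a log2 difference of 1.18 (SE 0.13). In bulk samples, a change in the number of cells that make a transcript and a change in RNA per cell cannot be told apart.

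The other classical inhibitors did not move with it. Nfkbib encodes I-kappa-B-beta, a slower-responding inhibitor, and was at 50.2 and 51.5 TPM with BMP6 and 52.3 and 51.7 TPM in controls. The groups did not overlap, but the log2 difference was -0.03 (SE 0.09). Nfkbie encodes I-kappa-B-epsilon and was at 4.05 and 5.67 TPM with BMP6 and 5.29 and 4.60 TPM in controls. Its groups overlapped, and the pairs went opposite ways, by -0.32 and 0.25 on the log2 scale.

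Nfkbia therefore made up a larger part of the classical inhibitor transcripts after BMP6. Summed TPM of Nfkbia, Nfkbib and Nfkbie was 145 and 129 with BMP6 and 91.9 in each control. Nfkbia was 62.5% and 55.7% of this sum with BMP6 and 37.4% and 38.7% in controls. In the controls the most abundant inhibitor was Nfkbib, and with BMP6 it was Nfkbia, in both pairs.

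The atypical inhibitors differed from each other. Bcl3 encodes a nuclear I-kappa-B protein that works with homodimers of the p50 and p52 subunits. It was at 33.1 and 25.9 TPM with BMP6 and 23.5 and 19.1 TPM in controls. Both BMP6 libraries were above both controls, and the log2 differences of the pairs were close, at 0.47 and 0.43 (fit 0.45, SE 0.16). Nfkbiz, which encodes the inducible nuclear protein I-kappa-B-zeta, was at 1.01 and 2.11 TPM with BMP6 and 1.35 and 2.21 TPM in controls. Replicate 2 was higher than replicate 1 in both groups, and the groups overlapped (log2 difference -0.14, SE 0.27).

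Tnfaip3 encodes A20, which edits ubiquitin chains and stops signalling from TNF and Toll-like receptors to IKK. It was at 0.580 and 0.731 TPM with BMP6 and 1.40 and 1.47 TPM in controls. Both BMP6 libraries were below both controls, with ratios of 0.415 and 0.498, so this second classical feedback gene went the other way from Nfkbia. The log2(TPM + 1) difference of -0.56 (SE 0.15) understates the fold at such low levels, and with a pseudocount of 0.1 in place of 1 it was -1.03. The values rest on 159 and 194 rebuilt reads with BMP6 and 392 and 398 in controls, against 3458 to 8933 for Nfkbia.

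**Figure D1:**
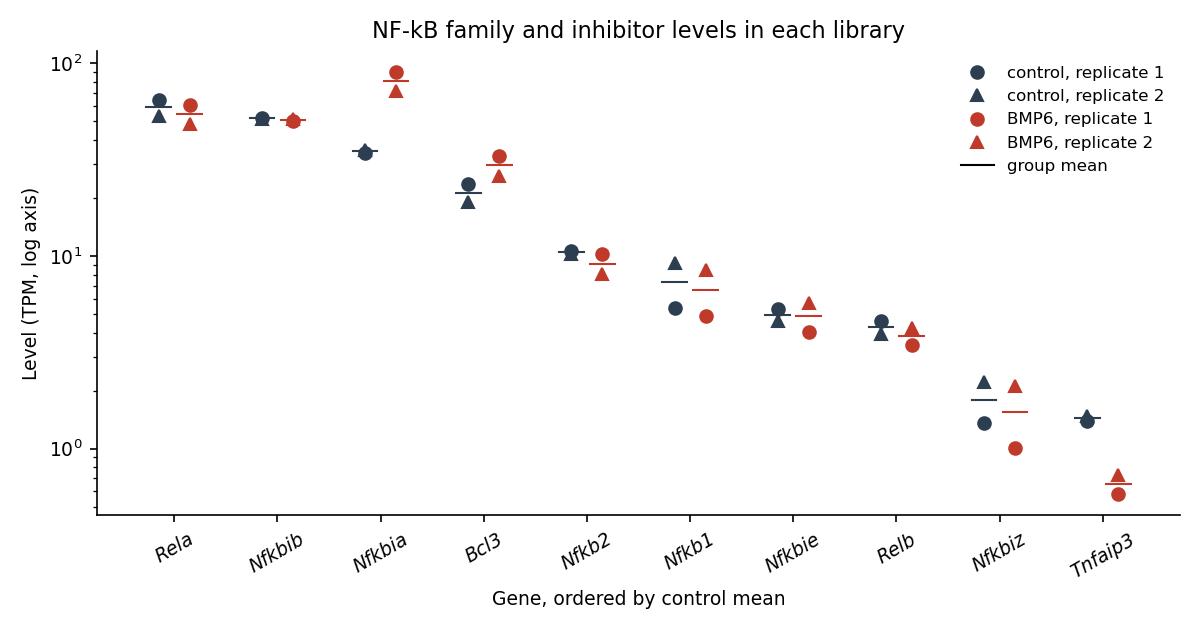
Level of each gene in each library (TPM, log axis), with genes ordered by control mean, circles for replicate 1, triangles for replicate 2, dark for control, red for BMP6, and a line at each group mean. Nfkbia and Bcl3 have both BMP6 points above both control points. Tnfaip3 has both below, as do Nfkb2 and Nfkbib by smaller margins. Rela, Nfkb1 and Nfkbiz are split by replicate number instead.

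The subunit genes differed by less. Rela encodes p65, the subunit with the activation domain in the classical dimer, and was at 60.8 and 48.5 TPM with BMP6 and 64.8 and 53.2 TPM in controls. Replicate 1 was higher than replicate 2 in both groups, and the groups overlapped (log2 difference -0.11, SE 0.15). Relb, the activating partner in the non-canonical pathway, was at 3.43 and 4.22 TPM with BMP6 and 4.61 and 3.94 TPM in controls, and its pairs went opposite ways.

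Nfkb1 encodes the precursor of p50 and was at 4.87 and 8.47 TPM with BMP6 and 5.38 and 9.24 TPM in controls. Its level followed the replicate number, and within each pair it was slightly lower with BMP6 (log2 difference -0.12, SE 0.31). With the replicate number as a block in the fit, the SE was 0.10. Nfkb2 encodes the precursor of p52 and was at 10.2 and 8.07 TPM with BMP6 and 10.6 and 10.3 TPM in controls. Its groups did not overlap, and the log2 differences of the pairs were -0.05 and -0.31.

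Rela was the main subunit transcript, at 69.4% to 76.7% of the summed subunit TPM in the 4 libraries. The subunit sum was 79.3 and 69.3 TPM with BMP6 and 85.5 and 76.7 TPM in controls. Classical inhibitor transcripts were 1.82 and 1.86 times the subunit transcripts with BMP6 and 1.08 and 1.20 times in controls. The ratio of Nfkbia to Rela alone was 1.49 and 1.48 with BMP6 and 0.531 and 0.669 in controls. These are ratios of transcripts and say nothing of protein.

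**Figure D2:**
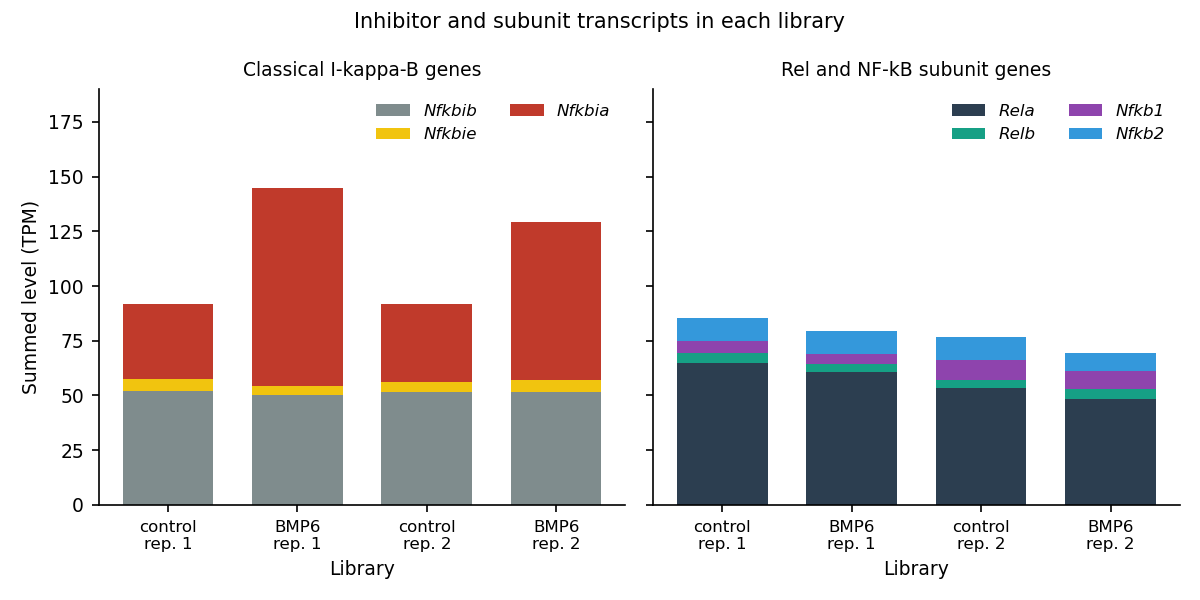
Stacked bars of summed levels (TPM) for the 3 classical inhibitor genes (left) and the 4 subunit genes (right) in each library. The Nfkbia segment is taller in both BMP6 libraries, which brings the left bars to 145 and 129 TPM from 91.9 TPM, while the right bars stay between 69.3 and 85.5 TPM.

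Ordered by control mean, levels ran from Rela through Nfkbib, Nfkbia, Bcl3, Nfkb2, Nfkb1, Nfkbie and Relb to Nfkbiz and Tnfaip3. Control values of neighbours overlapped for Nfkbie and Relb and for Nfkbiz and Tnfaip3. With BMP6, Nfkbia stood first in both libraries.

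By the call rule (an adjusted p under 0.1 in limma together with a fold change on this scale that reaches 2 upward or 0.5 downward), 1 of the 10 genes, Nfkbia, was called higher and none lower. Over all tested entries 0.206% were called higher and 0.0% lower, or 0.206% in either direction. On the adjusted p alone, the shares were 0.236% higher, 0.00762% lower and 0.244% in all. With the replicate number as a block, Nfkbia and Bcl3 were past the adjusted p, against 1.23% of entries higher, 0.404% lower and 1.64% in all. The Nfkbia call was lost without control replicate 1 (log2 difference 1.16), with voom on rebuilt reads (1.19), and with no filter on low values or without the variance trend (1.18 in each). The genes were chosen on this contrast, so nothing is read from these counts.

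Libraries of the groups did not overlap for 5 of the 10 genes, 2 higher and 3 lower with BMP6. Among all tested entries 16.6% did not overlap and were higher, 11.6% were lower, and 28.3% were one or the other. Both pairs were higher for 2 genes and lower for 6, against 34.9% and 25.7% of entries, or 60.6% with both pairs the same way. The median log2 difference was -0.11 over the 10 genes and 0.02 over all entries, for which the 5th and 95th percentiles were -0.23 and 0.27. Of the tested entries, 35 had a larger log2 difference than Nfkbia, 204 a larger one than Bcl3, and 42 a lower one than Tnfaip3.

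**Figure D3:**
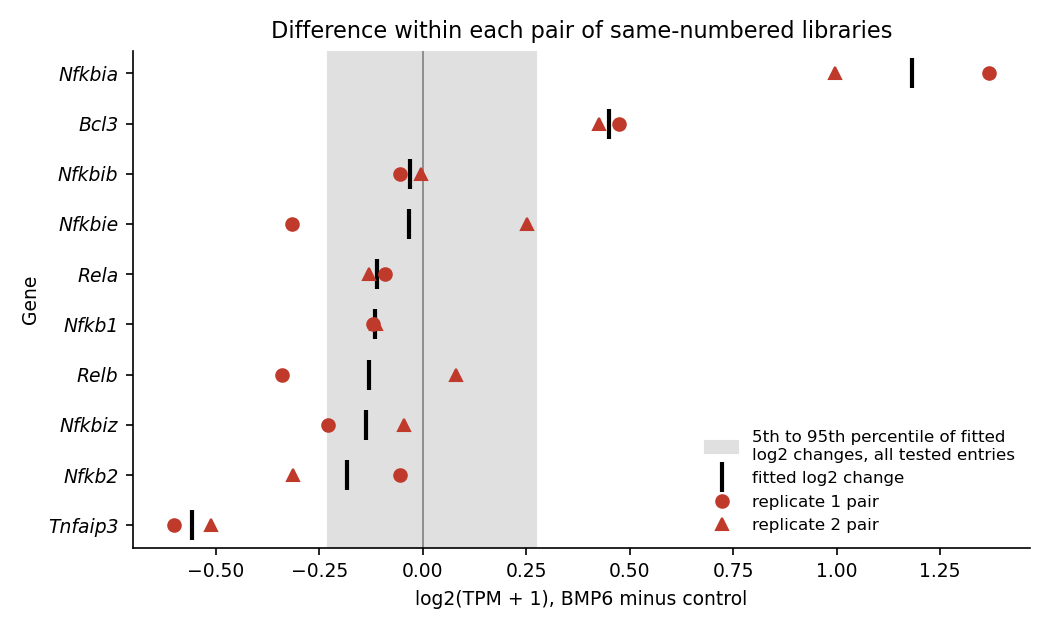
Difference in log2(TPM + 1), BMP6 minus control, within the replicate 1 pair (circles) and the replicate 2 pair (triangles), with the fitted value as a bar. Shading gives the 5th to 95th percentile of the fitted values of all tested entries (-0.23 to 0.27). Single pairs can spread more widely than fitted values. Nfkbia, Bcl3 and Tnfaip3 have both pairs outside the shaded range on 1 side, and Nfkbie and Relb have pairs on either side of 0.

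The differences were then followed along the transcripts, with exon depth (scaled to library size) summed over all transcripts of an entry. All 6 Nfkbia exons were higher in both pairs, by ratios of 2.55 to 2.74 in pair 1 and 1.86 to 2.57 in pair 2. All 9 Bcl3 exons were higher too, by 1.25 to 1.57 and 1.18 to 1.60. All 9 Tnfaip3 exons were lower, at ratios of 0.0276 to 0.786 and 0.0551 to 0.665. The lowest of these was exon 1, the exon of the upstream start whose promoter is printed above. Its scaled depth was 0.0124 and 0.0129 with BMP6 and 0.448 and 0.234 in controls. The whole gene rests on 159 to 398 rebuilt reads per library, so very few cover this exon. The size of its ratios is therefore uncertain.

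Nfkb1, which spans 25 exons, was singled out after its values were seen. Its exons 1 to 13 were lower with BMP6 in both pairs. Of the 12 exons after them, 4 were lower and 2 were higher in both pairs. This cut was placed where the run of lower exons ended, so the count before it was fixed by that choice. The share of such exons over all entries was not computed. The ratio of BMP6 to control was 0.645 and 0.778 over the 5′ part of the transcript, up to its middle base, and 1.03 and 0.955 over the 3′ part. The log2 change of the 5′ to 3′ ratio was -0.68 and -0.30 in the 2 pairs. Over 8642 entries with at least 5 exons, its median was -0.04 and -0.01, and its 5th percentile -0.46 and -0.35. The value for pair 1 was thus below the 5th percentile and the value for pair 2 was not. In pair 2, Nfkbiz (-0.71) and Relb (-0.43) were also below the 5th percentile, while their values in pair 1 were 0.14 and 0.39. Total Nfkb1 TPM covers both parts.

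**Figure D4:**
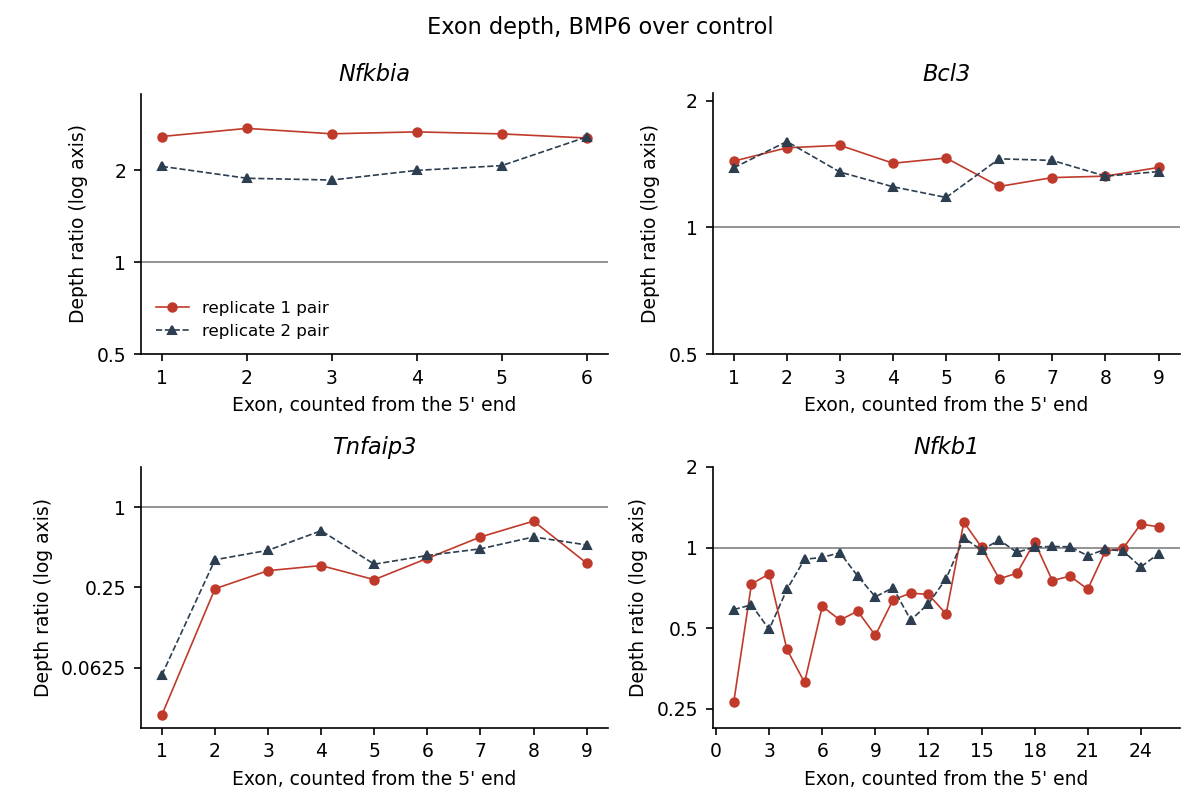
Ratio of scaled exon depth, BMP6 over control (log axis), by exon from the 5′ end for Nfkbia, Bcl3, Tnfaip3 and Nfkb1, with circles for the replicate 1 pair and triangles for the replicate 2 pair. Ratios stay above 1 along Nfkbia and Bcl3 and below 1 along Tnfaip3, and for Nfkb1 they are below 1 over the first 13 exons and between 0.699 and 1.24 after them.

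Nfkbia, Rela and Bcl3 each had 1 transcript in the deposited annotation. For Nfkbib, the shorter transcript was at 46.5 and 44.6 TPM with BMP6 and 50.7 and 48.0 TPM in controls, and the longer one at 3.69 and 6.91 TPM with BMP6 and 1.60 and 3.62 TPM in controls. Thus the shorter transcript was lower and the longer one higher in both pairs. Control replicate 2 lay just below BMP6 replicate 1 for the longer one. The split between transcripts is StringTie's estimate. Nfkbiz was assigned to different transcripts in different libraries, so its transcripts were not compared. The libraries were unstranded, so reads from genes that overlap on opposite strands cannot be told apart. In the newer GENCODE M39 annotation, Nfkbia overlaps the non-coding gene Gm36634 on the other strand, over 109 bases of transcript. Nfkb2 overlaps 4833438C02Rik, at up to 2.43 TPM, and the protein-coding gene Psd, at up to 0.218 TPM. The stretch shared with Psd is 849 bases of transcript. Bcl3 overlaps Gm16175 and Gm16174, at up to 0.181 and 0.805 TPM. Nfkb1 overlaps Gm43430 on its own strand, at up to 0.806 TPM, and the non-coding gene Gm65585 on the other. Nfkbib overlaps Ccer2, listed at 0 TPM, and the non-coding gene Gm71901 on the other strand, over 316 and 338 bases. Rela overlaps the non-coding gene Gm56632 on the other strand. A stretch of at most 149 bases of Relb was shared, at 95% identity or more, with 93 other genes. These shared lengths are those of M39 transcripts, and the M39 genes Relb and Nfkb2 reach beyond the deposited ends. Whether the shared stretches lie in the exons measured here was not checked, so their effect on the levels is not known. No entry and no M39 gene overlaps Nfkbie, Nfkbiz, Relb or Tnfaip3.

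In log2(TPM + 1) centred on each gene's mean, the 5 entries with the smallest root mean square difference from Nfkbia over the 4 libraries were Id2 (0.0459), Gm5763 (0.0548), Msx1 (0.0787), Snai1 (0.0951) and Dusp8 (0.102). Id2, an inhibitor of bHLH factors, was at 569 and 447 TPM with BMP6 and 202 and 219 TPM in controls. Of 13 early response genes 12 were tested. Junb (log2 difference 1.39, SE 0.09, adjusted p = 0.0132 in limma) and Dusp1 (0.90, SE 0.10, adjusted p = 0.0590) rose, and 0 fell. Over all tested entries, 0.236% were higher and 0.00762% lower on the adjusted p. The list of early genes was also written with earlier results of these data known, so its p values are a description only. The merged entry named Dusp1 spans chr17:26724564-26781102, and whether it holds transcripts of other genes was not checked. Myc and Zfp36, named after their values were seen, were lower with BMP6 without overlap. Myc had a log2 difference of -0.45, with an adjusted p of 0.637 in limma and 0.0303 with the replicate block. Zfp36 had one of -0.51, with an adjusted p of 1.0 in limma and 0.154 with the block.

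The rest of the pathway was taken from a list of 81 genes grouped by role, written with earlier results of these data known. Counts and p values for its genes are therefore a description and support nothing. An entry of that name was found for 80, and 51 were tested. On the adjusted p, 1 of the 51 rose (Ier3) and 0 fell, against 0.236% and 0.00762% of all entries. Ier3 did not pass with any 1 of the 4 libraries left out: without control replicate 1 or control replicate 2, 0 genes passed, without BMP6 replicate 1, 1 passed (Gadd45b, higher), and without BMP6 replicate 2, 2 passed (Gadd45b, higher, and Otulin, lower). At an unadjusted p under 0.05, 6 were higher and 0 lower, against 2.34% and 0.861% of all entries. With the replicate block 5 rose (Ier3, Gadd45b, Csf1, Traf5, Tnfrsf12a), and 0 fell, against 1.23% and 0.404% of all entries. Libraries of the groups did not overlap for 10 of the 51 genes that were higher and 1 that was lower, against 16.6% and 11.6% of all entries, so the count of higher genes was near the background. The median log2 difference was 0.06, against 0.02 over all entries.

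Among the family members outside the 10 genes, Rel, which encodes the c-Rel subunit, was at 1.37 and 1.82 TPM with BMP6 and 0.909 and 1.25 TPM in controls. Its groups did not overlap (log2 difference 0.32, SE 0.17), with an adjusted p of 1.0 in limma and 0.367 with the block. Nfkbid, an atypical inhibitor gene, was at or below 0.147 TPM and was not tested.

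Upstream, the ligands found were low. Tnfsf12, which encodes TWEAK, had no entry of that name and was not analysed here. Of the 9 ligand genes found, Il1b alone was tested, at 2.78 and 3.38 TPM with BMP6 and 2.96 and 4.00 TPM in controls, which overlapped. Il33 reached 1.02 TPM and Tnfsf11 0.390 TPM, and Cd40lg was listed at 0 in all libraries. Of 11 receptor genes 7 were tested. Tnfrsf12a, the receptor for the cytokine TWEAK, was the most abundant, at 226 and 238 TPM with BMP6 and 180 and 182 TPM in controls. Both BMP6 libraries were above both controls (log2 difference 0.36, SE 0.08), with an adjusted p of 0.637 in limma and 0.0196 with the block. Il1rap, a co-receptor for interleukin 1, did not overlap either, at 1.53 and 1.51 against 1.19 and 1.19 TPM, and did not pass in either fit. Tnfrsf1a, the main TNF receptor, was at 26.5 to 38.7 TPM and Ltbr, the lymphotoxin receptor, at 8.20 to 11.2 TPM, and neither passed.

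All 13 adaptor genes were tested and none passed without the block. Traf5, a signalling adaptor of TNF receptors, was at 4.50 and 4.23 TPM with BMP6 and 2.32 and 2.02 TPM in controls. Its groups did not overlap (log2 difference 0.76, SE 0.15), with an adjusted p of 0.427 in limma and 0.0193 with the block. Irak4, a kinase of the interleukin 1 and Toll-like receptor pathway, did not overlap but differed by 0.17 only. Traf2, Rbck1 and Sharpin were the most abundant adaptors, with log2 differences of 0.01, -0.14 and -0.10.

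Of 10 genes for IKK, TAK1 and related kinase complexes, 9 were tested and none passed. Chuk and Ikbkb, the catalytic IKK genes, had log2 differences of 0.06 and 0.13, and Tbk1, a related kinase gene, of 0.18. Ikbke was at 1.61 and 1.57 TPM with BMP6 and 1.34 and 1.17 TPM in controls, without overlap. Of 9 other brakes on the pathway 8 were tested and none passed. The most abundant were Rnf11 and Tax1bp1, both partners of A20, with log2 differences of 0.19 and 0.20. Otulin, which removes linear ubiquitin chains, was at 25.7 and 64.5 TPM with BMP6 and 54.1 and 64.0 TPM in controls, so BMP6 replicate 1 stood apart.

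Among 26 genes known as NF-kB targets, 12 were tested, 1 rose and 0 fell, against 0.236% and 0.00762% of all entries. Ier3, an early response gene linked to cell survival, was at 23.1 and 22.4 TPM with BMP6 and 10.5 and 11.4 TPM in controls, and rose (log2 difference 0.99, SE 0.12, adjusted p = 0.0721 in limma, 0.000771 with the block). It did not pass with no filter on low values, without the variance trend, with voom on rebuilt reads or with any 1 library left out. Gadd45b, a stress response gene, was at 87.3 and 68.6 TPM with BMP6 and 40.1 and 38.0 TPM in controls. Its groups did not overlap (log2 difference 0.97, SE 0.13), with an adjusted p of 0.139 in limma and 0.000555 with the block. Csf1, a macrophage growth factor, was at 17.5 and 25.6 TPM with BMP6 and 9.30 and 13.9 TPM in controls, with an adjusted p of 1.0 in limma and 0.00187 with the block. These 3 genes are also targets of other pathways.

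Sod2 and Vcam1, 2 of the most abundant targets, had log2 differences of 0.02 and -0.16, and neither passed. The following were named after their values were seen. Bcl2l1, which encodes the survival protein Bcl-xL, was at 37.9 and 37.0 TPM with BMP6 and 31.7 and 29.4 TPM in controls, with an adjusted p of 1.0 in limma and 0.171 with the block. The chemokine gene Ccl2 was at 3.12 and 4.98 TPM with BMP6 and 5.18 and 5.96 TPM in controls (log2 difference -0.40, SE 0.21, adjusted p of 1.0 in limma). Cxcl1, another chemokine gene, was too low to be tested, at 0.562 and 0.605 TPM with BMP6 and 1.80 and 0.798 TPM in controls. Il6 was at or below 0.558 TPM and Icam1 at or below 0.415 TPM in each library, and Csf2 and Lcn2 were listed at 0.

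**Figure D5:**
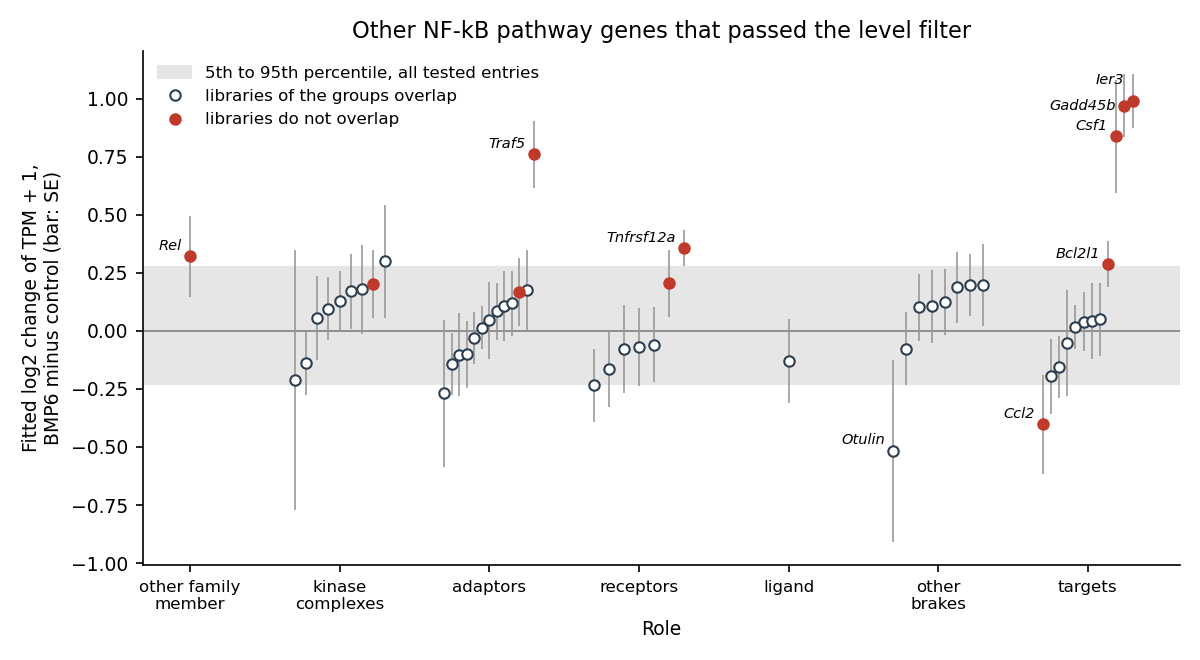
Fitted log2 difference of TPM + 1, BMP6 minus control (points) with its SE (bars), for the 51 tested pathway genes outside the 10 members, by role, with the 5th to 95th percentile of all tested entries shaded. Filled points mark genes whose libraries did not overlap between the groups, 10 higher and 1 lower, and Ier3, Gadd45b, Csf1 and Traf5 lie farthest above 0.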

How the data were processed

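Polyadenylated RNA from 2 BMP6 and 2 control cultures was sequenced as unstranded, PCR-amplified full-length cDNA without molecular identifiers, paired-end 100 bases. Per the study's methods and the submitters' processing notes, reads were aligned with STAR 2.7.11a to GRCm39 (GENCODE M32), sorted with SAMtools 1.17, and assembled, merged and quantified with StringTie 2.2.1, run without correction for reads aligned to several places. The authors deposited TPM and FPKM per gene in joined tables, and coverage (mean depth per base) per transcript and exon in files for each library. The files used here hold no counts. Reads were rebuilt as coverage times length over a read length of 100 bases, as an indication of depth. They are not independent molecules.

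The test was limma 3.58.1 (R 4.3.3) on log2(TPM + 1) with a mean-variance trend, two-sided, without a block, on entries with a mean of at least 1 TPM, with Benjamini-Hochberg adjustment over all 13128. A call needed an adjusted p under 0.1 and a fold that reached 2 upward or 0.5 downward. The fit was also run on simulated data. Their noise was independent between libraries, with no shift by replicate number, unlike that of the real libraries. The authors' own comparison used DESeq2 on rebuilt reads. A comparison of 2 libraries against 2 cannot give less than 33.3% of splits in a permutation test.

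Per the titles, a replicate number covers 1 library of each group, and same-numbered libraries were treated as pairs. Across genes (not independent replicates), their deviations from the group means correlated at 0.563. The fit with this block was an alternative.

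The 10 genes and the gene lists were chosen with earlier results of these data known, so p values of listed genes are descriptive only. Named from each role list were genes past the adjusted p, the 3 largest differences among tested genes without overlap, and the 3 highest mean levels. Promoter sequences are from RefSeq (GRCm38.p6), motifs were searched on both strands of the 250 bases before each start, and coordinates of genes are those of the deposited files.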

Additional observations from a re-analysis of the deposited data

How the results depend on the processing

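Nfkbia was higher under all 15 alternatives, by 1.02 to 1.34 on the log2 scale, and was called in 11. The call was lost with no filter on low values (1.18), without the variance trend (1.18), with voom on rebuilt reads (1.19) and without control replicate 1 (1.16). The range with 1 library left out was 1.02 to 1.34. Bcl3 (0.28 to 0.62) was higher and Tnfaip3, Nfkb2, Nfkbib and Relb lower under all alternatives that gave a value. The Tnfaip3 difference was -1.03 with a pseudocount of 0.1, -0.19 with 5, -0.39 on FPKM and -1.15 with voom on rebuilt reads, without and with the block. It was called only with voom and the block, and was too low to be tested at a mean of at least 5 TPM, as were Nfkbie, Nfkbiz and Relb. With 1 library left out, differences ran from -0.46 to 0.23 for Nfkb1, -0.45 to 0.18 for Nfkbiz, -0.23 to 0.17 for Nfkbie, -0.27 to 0.05 for Rela and -0.34 to -0.03 for Nfkb2. Leaving out 1 library breaks a pair. Levels of Nfkb1, Nfkbiz, Rela and Nfkb2 differed by replicate number the same way in both groups, and those of Nfkbie did not. Why the differences moved was not tested. Within pairs, Nfkb1, Nfkbiz, Rela and Nfkb2 were lower with BMP6 in both, and Nfkbie and Relb went opposite ways.

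Pairing by the replicate block moved the entries called higher from 27 to 41, those called lower from 0 to 2, and the other pathway genes past the adjusted p from 1 to 5. With voom and the block these were 66, 10 and 5. Entries called higher came to 16 with a pseudocount of 5, 16 at a mean of at least 5 TPM, 14 without the trend and 2 with no filter, which tests more entries. Pathway genes past the adjusted p came to 0 with no filter, without the trend and with voom. With 1 library left out, entries called lower ranged from 2 to 7 and pathway genes past the adjusted p from 0 to 2. Ier3 passed in none of these 4 fits. Without BMP6 replicate 1 the latter was Gadd45b, higher, without BMP6 replicate 2 they were Gadd45b, higher, and Otulin, lower, and without either control there were 0. The cause of these shifts was not tested. Other scalings moved the median of all entries by at most 0.0224 in size. With 2 libraries in a group, small differences could not be shown, and Tnfaip3 rests on few reads.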
